A study of Homo sapiens with 4 samples.

Results

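Chromosome 22 was examined in lamin B1 chromatin immunoprecipitation and sequencing (ChIP-seq) data of 2 human prostate cancer cell lines, LNCaP and VCaP. Its members are all 40 kb bins of the chromosome with a deposited value in both lines, 875 bins of the 71436 such bins in the genome, or 1.22%. The chromosome was chosen by the values of the same tables, since the share of its bins in the lamina-associated state differed more between the lines than on any other of the 24 chromosomes. That share was 19.8% in LNCaP and 90.3% in VCaP. The level of either line and the difference between them are therefore given as descriptions, without a test. Both lines have 882 entries on the chromosome. The 7 entries outside the rule are the last entry, which is 64.6 kb wide, and 6 wider entries over gaps. Of these 6 entries, 2 are without a value.

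LNCaP is an established cell line from a prostate adenocarcinoma, and VCaP comes from a prostate cancer that had spread to bone. Both were fixed with formaldehyde while growing in culture, and the labels name no other treatment. Each line has 1 library precipitated with a lamin B1 antibody and 1 input library without antibody, so the 4 libraries form 4 groups of 1. A difference between the lines has no replicate check, and the SDs below are over bins of the same library pair. The libraries' read totals were not analysed here, so the depth behind a value is unknown.

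Lamin B1 is a structural protein of the nuclear lamina, a protein mesh lining the inside of the nuclear envelope, and DNA that precipitates with it marks chromatin at the nuclear edge. Such lamina-associated chromatin is typically poor in genes, replicates late and carries marks of silent chromatin. Chromosome 22 is a short, acrocentric and gene-dense chromosome, and in many cell types chromosomes of this kind lie towards the nuclear interior. Its short arm holds ribosomal DNA repeats, and the part of the long arm next to the centromere holds the segment deleted in DiGeorge syndrome, with TBX1, a transcription factor of pharyngeal development. Further along lie BCR, the fusion partner of ABL1 in chronic myeloid leukaemia, and NF2, the tumour suppressor merlin. In the RefSeq gene order of GRCh38 the last protein-coding genes before the end are ARSA, SHANK3, ACR and RABL2B. SHANK3 encodes a scaffold protein of excitatory synapses. The bins are in hg19 and the gene table is in GRCh38, so no gene was placed in a bin, and no sequence is shown.

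The unit is log2 enrichment of ChIP over input, where 0 means equal recovery on the authors' scale and 1 means a 2-fold enrichment. Each deposited value is the mean of an entry and the 2 entries before it. On chromosome 22 this average could be undone exactly. The own values of the 2 gap entries inside the chromosome and of its last entry came out at 0, within 1e-09, in both lines, although their deposited values ran from -1.74 to 0.81. A deposited value is thus drawn towards 0 in the 2 bins after a gap and carries signal from upstream. The noise of a deposited value, from values 3 bins apart, had an SD of 0.15 in LNCaP, 0.25 in VCaP and 0.20 for the difference. It is the noise of a mean of 3 entries, and it includes any real change over 120 kb.

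The members covered 35 Mb from 16040001 to 51240000, in 3 stretches separated by short gaps. In LNCaP the median log2 enrichment was -0.08, with an interquartile range of -0.26 to 0.12 and an SD of 0.40. In VCaP the median was 0.67, with an interquartile range of 0.45 to 0.86 and an SD of 0.34. Most of the chromosome thus lay below equal recovery in LNCaP and well above it in VCaP, with 38.4% of bins over 0 in LNCaP and 94.4% in VCaP, against 56.9% and 66.9% of all common bins. The interquartile ranges of the lines did not overlap.

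**Figure D1:**
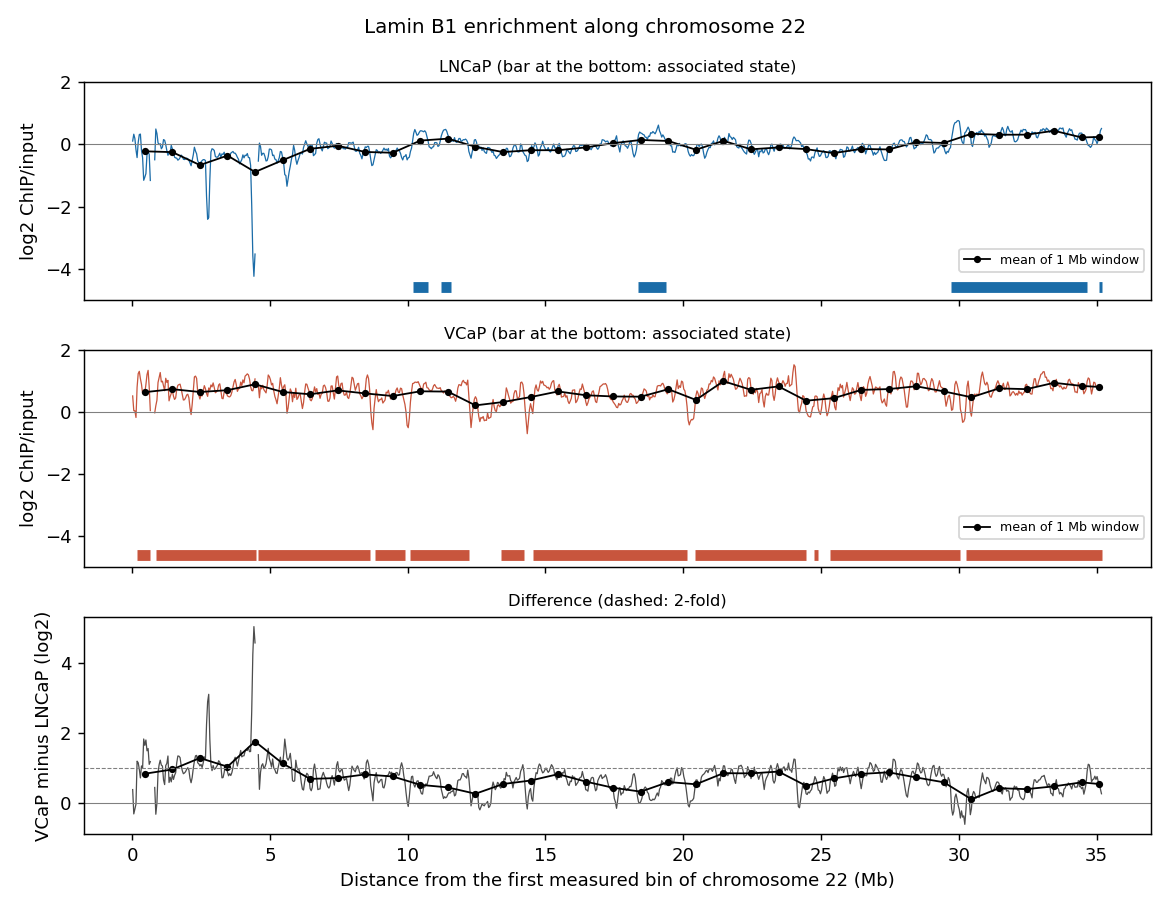
Log2 enrichment of lamin B1 ChIP over input in 40 kb bins (coloured lines) and as means of 1 Mb windows (black points) in LNCaP and VCaP, with the difference in the third panel. The horizontal axis is the distance from the first measured bin, and the bars mark the deposited associated state, which covers 19.8% of bins in LNCaP and 90.3% in VCaP.

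The difference, VCaP minus LNCaP, had a median of 0.72 and an interquartile range of 0.45 to 0.93. It was above 0 in 841 of 875 bins (96.1%), against 58.1% of all common bins of the genome. VCaP was higher by more than 1, a 2-fold difference, in 164 bins (18.7%), against 3.83% of all common bins. LNCaP was higher by more than 1 in 0 bins, against 0.735% of all common bins. These shares belong to the contrast that chose the chromosome and support nothing beyond it. The genome-wide VCaP median lay 0.13 above that of LNCaP, and relative to this shift the median difference on chromosome 22 was 0.59. After removing the shift, VCaP was higher in 814 bins (93.0%, against 47.1% of all common bins), and the bins past a 2-fold difference fell to 78 (against 2.14% of all common bins), with 0 in the other direction.

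**Figure D2:**
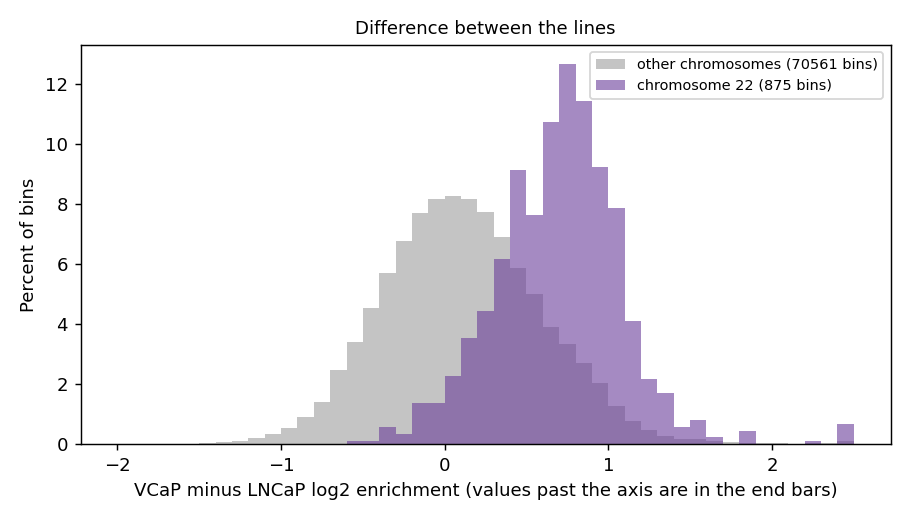
Distribution of the VCaP minus LNCaP difference in log2 enrichment, as percent of bins, on chromosome 22 (875 bins) and on the other chromosomes. The distribution of chromosome 22 is centred near its median of 0.72 and lies mostly above 0, while that of the other chromosomes is centred near 0.

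The profile of LNCaP changed along the chromosome, and that of VCaP did so much less. In windows of 5 Mb, the LNCaP mean was -0.38 (SD 0.44, 96 bins) before 20 Mb and -0.35 (SD 0.63, 123 bins) from 20 to 25 Mb. It lay between -0.13 and -0.04 in the 4 windows from 25 to 45 Mb. From 45 to 50 Mb it was 0.29 (SD 0.24, 125 bins), and in the 31 bins beyond it was 0.23 (SD 0.17). LNCaP was thus lowest in the part of the long arm before 25 Mb and highest towards its end.

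In the same windows the VCaP mean stayed between 0.46 (SD 0.37, 25 to 30 Mb) and 0.82 (SD 0.14, beyond 50 Mb). As LNCaP is subtracted and the VCaP means varied less, the difference between the lines was largest where LNCaP was lowest. It was 1.05 (SD 0.50) before 20 Mb, 1.02 (SD 0.68) from 20 to 25 Mb, and 0.41 (SD 0.33) from 45 to 50 Mb. VCaP was higher in all 8 windows, a count that belongs to the contrast that chose the chromosome.

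Spearman's rho between enrichment and position along the chromosome over the 875 bins was 0.52 for LNCaP and 0.12 for VCaP, given as a description, since neighbouring bins share averaged entries. Among the 24 chromosomes the LNCaP value was the highest. The first 125 bins of chromosome 22, about 5 Mb, had the lowest median of any chromosome's first 125 bins in LNCaP (-0.36). Chromosomes 21 (-0.34) and Y (-0.31) were close to it, so the low start was not particular to chromosome 22. The last 125 bins of chromosome 22 ranked 4 of 24 from the top (0.36). In VCaP the same stretches had medians of 0.72 and 0.79 and ranked 8 and 6.

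Of the 35 windows of 1 Mb with at least 10 bins, all 35 had a higher mean in VCaP. After removing the genome-wide shift of 0.13 this held for 34, and the window from 46 to 47 Mb came to -0.01. The LNCaP mean was below 0 in 22 windows and the VCaP mean in 0. The ranges were -0.88 to 0.44 in LNCaP and 0.20 to 0.98 in VCaP, so 30 LNCaP windows lay below the lowest VCaP window. The window counts, like those of bins, belong to the contrast that chose the chromosome. No share over the windows of all chromosomes is given beside them, so they are a description only.

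**Figure D3:**
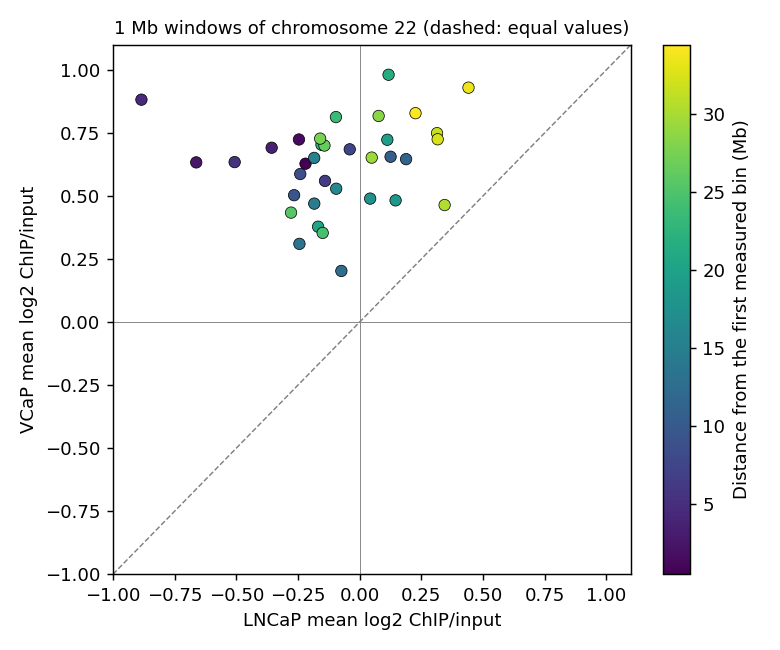
Mean log2 enrichment of the 35 windows of 1 Mb in LNCaP (horizontal) and VCaP (vertical), coloured by the distance from the first measured bin. All windows lie above the dashed line of equal values, the points farthest to the left are the windows at 20 and 18 Mb (-0.88 and -0.66 in LNCaP), and the brightest, at the end of the long arm, lie to the right.

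The 5 windows with the largest differences all lay between 17 and 22 Mb. From 20 to 21 Mb the LNCaP mean was -0.88 (SD 1.21) and the VCaP mean 0.88 (SD 0.21), a difference of 1.77 over 23 bins. The windows at 18, 21, 19 and 17 Mb followed, with differences of 1.30, 1.14, 1.05 and 0.97. The first window, from 16 to 17 Mb, had 0.85, which the windows at 39, 43, 37 and 38 Mb also exceeded. The smallest difference was that from 46 to 47 Mb, 0.12, with a mean of 0.34 (SD 0.21) in LNCaP and 0.46 (SD 0.47) in VCaP. The windows at 28 Mb (0.28), 34 Mb (0.34), 48 Mb (0.41) and 47 Mb (0.44) came next.

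The extremes of VCaP coincided with those of the difference only in part. The window from 20 to 21 Mb was also the third highest of VCaP. VCaP was highest from 37 to 38 Mb, at 0.98 (SD 0.16), where LNCaP had 0.12 (SD 0.12). It was lowest from 28 to 29 Mb, at 0.20 (SD 0.50), where LNCaP had -0.07 (SD 0.18). The window from 49 to 50 Mb was high in both lines, with 0.44 (SD 0.07) in LNCaP, its highest, and 0.93 (SD 0.19) in VCaP, its second highest. The window from 41 to 42 Mb was among the 5 lowest in both lines, at -0.28 (SD 0.10) and 0.43 (SD 0.32).

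Part of the low LNCaP level before 25 Mb came from a few narrow troughs. LNCaP fell below -1 in 13 bins (1.49%, against 0.651% of all common bins), which formed 5 troughs, all before 22 Mb. VCaP had 0 bins below -1 on the chromosome, and its median in these 13 bins was 0.67. The deepest trough was chr22:20360001-20520000, 4 bins with LNCaP values of -1.95, -3.57, -4.24 and -3.52. VCaP had 0.68, 0.67, 0.80 and 1.05 in the same bins, so the lines were farthest apart where LNCaP was lowest. The bin with -4.24, from 20440001 to 20480000, was the lowest LNCaP value of all common bins of the genome. All 4 bins lay within 5 bins of the gap that follows them.

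The next trough, chr22:18720001-18880000, did not lie beside a gap. Its LNCaP values were -1.66, -2.41, -2.35 and -1.14, and its VCaP values were 0.59, 0.49, 0.76 and 0.70. With the average undone, the low signal came down to 2 bins, at -3.96 and -2.71, and the 2 bins after them were at -0.38 and -0.32. The deepest trough kept 4 low bins when undone, at -4.28, -5.35, -3.10 and -2.13. The other 3 troughs, from 16440001, 16680001 and 21640001, were 1 or 2 bins long with LNCaP means of -1.10, -1.16 and -1.23. VCaP means there were 0.64, 0.03 and 0.03, so in the last pair VCaP was near 0.

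Without the 13 bins below -1, the stretch before the first LNCaP associated bin, described next, kept most of its difference. Over its 237 other bins the LNCaP mean was -0.26 (SD 0.24) in place of -0.35, and VCaP minus LNCaP was 0.90 (SD 0.35) in place of 0.99. The window from 19 to 20 Mb held no trough and still had an LNCaP mean of -0.36 with an SD of 0.10.

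The deposited model splits bins into an associated and a second state. In LNCaP the associated bins of chromosome 22 formed 5 runs that together covered 6.92 Mb. None of them began before 26240001. The first 250 bins, from 16040001 to 26240000, thus held 0 associated bins in LNCaP and 235 in VCaP, with mean values of -0.35 (SD 0.52) and 0.64 (SD 0.32). In this stretch 109 bins (43.6%) differed by more than 1, against 53 of 488 (10.9%) in the middle of the chromosome and 2 of 137 (1.46%) in its last part. Where these stretches begin was taken from the LNCaP states, so the counts describe the pattern only.

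The longest LNCaP run, chr22:45760001-50680000, spanned 123 bins and held most of the associated bins of that line. Its mean was 0.36 (SD 0.16) in LNCaP and 0.72 (SD 0.31) in VCaP. The largest step of the LNCaP profile, between medians of 8 bins, lay at its start, at 45840001, and rose from -0.18 to 0.70. VCaP rose by 0.30 at that position. The run was followed by 11 bins outside the state and a last run of 3 bins to 51240000, at 0.39 (SD 0.15) in LNCaP and 0.81 (SD 0.04) in VCaP.

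The other LNCaP runs lay in the middle of the chromosome. The run chr22:26240001-26760000 had means of 0.39 (SD 0.07) in LNCaP and 0.87 (SD 0.09) in VCaP over 13 bins. The run chr22:27240001-27600000 had 0.36 (SD 0.11) and 0.60 (SD 0.06) over 9 bins, and chr22:34400001-35400000 had 0.34 (SD 0.10) and 0.62 (SD 0.18) over 25 bins. All bins of these 3 runs were associated in VCaP too and were higher there.

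In VCaP the associated bins formed 11 runs over 31.6 Mb, the longest of them chr22:30600001-36160000 with 139 bins. What set VCaP apart along the chromosome was where it left the state. It did so in 85 bins, in 11 runs, of which 6 had at least 5 bins. The longest was chr22:28280001-29440000, with 29 bins and means of 0.00 (SD 0.26) in VCaP and -0.20 (SD 0.16) in LNCaP. The run chr22:36160001-36480000 had -0.18 (SD 0.21) and -0.29 (SD 0.11), and chr22:30280001-30600000 had -0.11 (SD 0.32) and -0.30 (SD 0.18). The largest VCaP step of the chromosome, from 0.81 to -0.26 at 36080001, lay 2 bins before the run from 36160001.

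LNCaP was lower in some of these dips too. Each of the 6 runs was compared with the VCaP-associated bins among the 10 bins on either side. The VCaP mean inside minus beside ran from -0.87 to -0.35 with a median of -0.63, as its states imply. The LNCaP mean, which the choice of these runs did not use, was also lower inside in 6 of 6, with differences from -0.39 to -0.06 and a median of -0.16. In 3 of the 6 runs this LNCaP difference was within the SD over the bins of the run, and in chr22:30280001-30600000 it barely passed it (-0.19, SD 0.18). Against all 10 bins on either side, LNCaP was lower in 5 of 6. The LNCaP change was largest in chr22:40480001-40800000, with -0.41 (SD 0.09) inside and -0.02 beside it. It was smallest in the neighbouring run chr22:40920001-41360000, with -0.31 (SD 0.08) inside and -0.25 beside it, and against all neighbouring bins this run did not lie lower in LNCaP (a difference of 0.0041). These comparisons were set up after the runs had been seen.

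**Figure D4:**
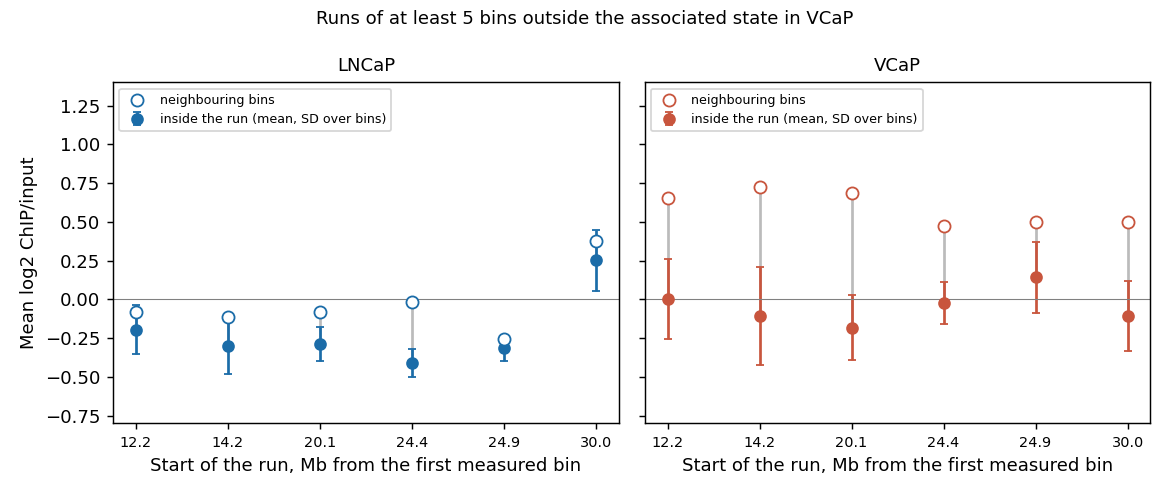
Mean log2 enrichment inside the 6 runs of at least 5 bins outside the associated state in VCaP (filled points, error bars are the SD over bins) and in the VCaP-associated bins beside them (open points), for LNCaP and VCaP. The filled points lie below the open ones in all 6 runs in both lines, and the run at the right is the only one with LNCaP above 0.

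A single run was associated in LNCaP alone, chr22:46080001-46320000, with 6 bins. LNCaP had values of 0.49, 0.15, 0.05, 0.04, 0.37 and 0.41 there, and VCaP had 0.08, -0.06, -0.34, -0.32, -0.22 and 0.22. By deposited value LNCaP was higher in all 6 bins, with a mean VCaP minus LNCaP difference of -0.36 (SD 0.15). With the average undone, VCaP was higher in the bins from 46120001 (0.03 against -0.23) and 46280001 (0.89 against 0.42). LNCaP stayed higher in the other bins of the run. The bin from 46240001 to 46280000 held the largest deposited difference in favour of LNCaP on the chromosome, -0.60. Undone, LNCaP had 0.78 and VCaP 0.32 there, while the bin from 45760001 had 0.49 and -0.49, which lie farther apart.

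This run lay near the start of the long distal run of LNCaP. Of the 34 bins of chromosome 22 with LNCaP above VCaP, 13 lay among the 19 bins of chr22:45760001-46520000. The stretch begins and ends with such bins, so its bounds follow from the bins counted and the count is a description. The means of that stretch were 0.43 (SD 0.25) in LNCaP and 0.32 (SD 0.46) in VCaP, which is a smaller gap than either SD. A further 10 of the 34 lay in the long VCaP dip from 28280001, where both lines were low.

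Each bin falls into 1 of 4 classes by its states. Associated in VCaP only were 623 bins (71.2%, against 23.8% of all common bins), with means of -0.18 in LNCaP and 0.69 in VCaP. Associated in both lines were 167 bins (19.1%, against 20.6%), at 0.36 and 0.74. Neither line was associated in 79 bins (9.03%, against 38.4%), at -0.28 and -0.03. The 6 bins of LNCaP only (0.686%, against 17.2%) are those listed above. The states chose the chromosome, so these shares are a description.

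The 167 shared bins were 96.5% of the LNCaP-associated bins and 21.1% of the VCaP-associated bins. Since VCaP was also associated in 88.7% of the bins outside the LNCaP state, the first share says little about shared position. Levels differed in the same direction. VCaP had a mean of 0.71 (SD 0.28) where LNCaP was associated and 0.61 (SD 0.35) where it was not. LNCaP had -0.06 (SD 0.40) where VCaP was associated and -0.24 (SD 0.26) where it was not. Borders of the states rarely met: 1 of the 9 LNCaP borders lay within 3 bins (120 kb) of 1 of the 19 VCaP borders. That border was at 26240001, next to a step in both lines, where LNCaP rose by 0.74 and VCaP by 0.81.

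The state did not stand for the same enrichment on chromosome 22 as elsewhere. Of the VCaP bins with an enrichment of 0 to 0.2, 19 of 46 (41.3%) were in the associated state on chromosome 22, against 11.8% on the other chromosomes. Between 0.2 and 0.4 the shares were 91.6% (76 of 83 bins) and 61.2%. In LNCaP they went the other way, with 11.7% (19 of 163 bins) against 22.9% and 79.0% (79 of 100 bins) against 85.9%. At 0.4 to 0.6 at least 94.5% of bins were associated in each of these comparisons. As background, a hidden Markov model sets the state of a bin from its neighbours as well as from its own value.

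Counted by enrichment, the lines differed on the chromosome in the same direction. Bins over 0.5 made up 2.17% in LNCaP (13.4% on the other chromosomes) and 69.5% in VCaP (24.5%). Bins over 1 made up 0% in LNCaP and 10.1% in VCaP, against 0.344% and 3.44%. The median enrichment difference of chromosome 22 was also the largest of the 24 chromosomes. These shares thus belong to the contrast that chose it and are no separate check.

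The profiles of the lines agreed in part, as measured by correlations across bins or windows of the same 2 library pairs, which are not independent points and carry no p. Over the 875 bins Pearson's r was 0.25 and Spearman's rho 0.38. Over the 35 windows of 1 Mb, r was 0.14 and rho 0.27. After subtracting the mean of its 1 Mb window from each bin, r was 0.31 and rho 0.43. The troughs weighed on Pearson's r, while Spearman's rho across bins stayed at 0.38 without the 13 LNCaP bins below -1. Without the 13 LNCaP bins below -1, r was 0.35 across bins, 0.25 across windows and 0.45 within windows, and without the 30 bins near gaps and ends it was 0.35, 0.22 and 0.45.

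The agreement was uneven along the chromosome. Before the first LNCaP run (250 bins), r was 0.08 and rho 0.21. From there to the long distal run (488 bins), r was 0.50 and rho 0.52. In the last part (137 bins), r was 0.31 and rho 0.32. All 13 trough bins lay in the first stretch, and r without them is not given for it. The stretches were cut by the LNCaP states, which limits the range of LNCaP values within each.

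The lines also varied over different distances. In LNCaP, bins 120 kb apart correlated with r = 0.58, bins 400 kb apart with 0.39, bins 1 Mb apart with 0.31 and bins 2 Mb apart with 0.25. In VCaP these values were 0.36, 0.18, 0.01 and 0.02. Similar levels thus reached over longer distances in LNCaP than in VCaP. The noise of a deposited value was 0.15 in LNCaP and 0.25 in VCaP, and its part in these correlations was not tested. The SD of the 1 Mb means was 0.28 in LNCaP and 0.18 in VCaP. The SD of bins around the mean of their window was 0.29 in both lines, but without the 13 trough bins it was 0.18 in LNCaP and 0.29 in VCaP. VCaP had the larger SD in 24 of the 35 windows, with a median over windows of 0.25 against 0.17 in LNCaP.

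Chromosomes 21, 19 and 17 were set beside chromosome 22. They are short, but they also rank 2 to 4 by the median difference between the lines and were chosen with earlier results known. Chromosomes 20 and 18, which are shorter than 17, had median differences of 0.48 and 0.01. Chromosome 21 is the other short acrocentric chromosome and has 884 bins, and the short chromosomes 19 and 17 have 1398 and 1948. With 1 library pair per line no difference between chromosomes was tested. Chromosome 21 had a median enrichment of -0.40 in LNCaP and 0.18 in VCaP. Chromosome 19 had 0.03 and 0.71, and chromosome 17 had -0.03 and 0.49. The medians of the bin differences were 0.56, 0.66 and 0.51, below the 0.72 of chromosome 22. Chromosome 22 was thus close to chromosome 19 in its VCaP level and lay between chromosomes 21 and 17 in its LNCaP level.

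**Figure D5:**
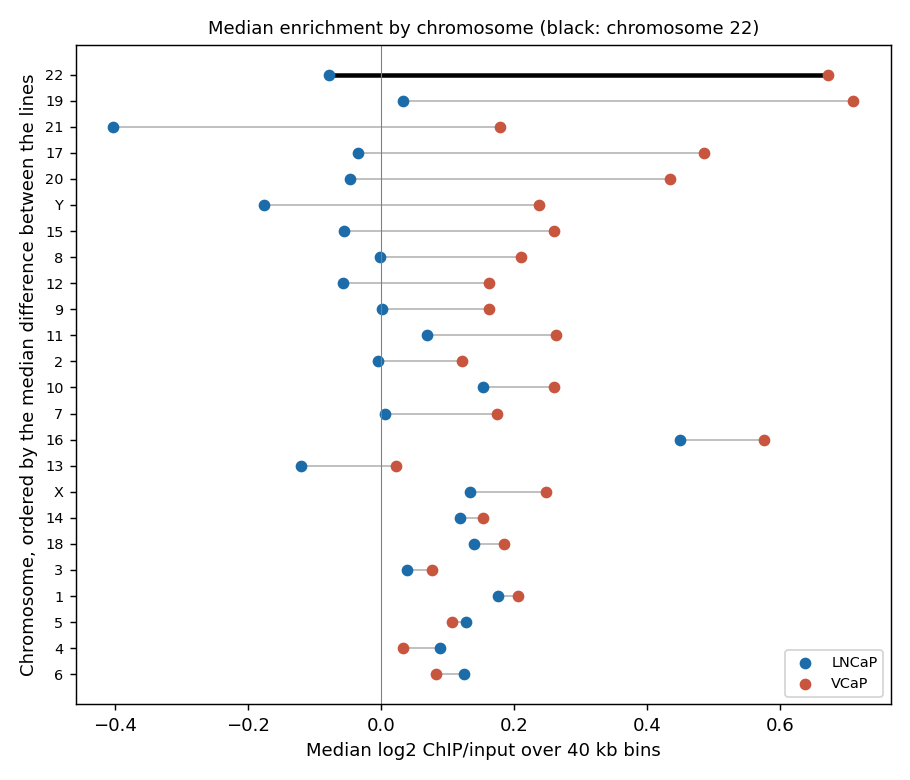
Median log2 enrichment of the 24 chromosomes in LNCaP and VCaP, ordered by the median difference between the lines. Chromosome 22, in black at the top, has medians of -0.08 and 0.67, and chromosomes 19, 21 and 17 follow.

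Chromosomes 22 and 19 had the flattest VCaP profiles of the 24, with an SD of the 1 Mb means of 0.18 each, against 0.36 on chromosome 21 and 0.27 on chromosome 17. They went opposite ways in LNCaP. Enrichment rose with position on chromosome 22 (rho 0.52) and fell on chromosome 19 (rho -0.60), while on chromosomes 21 and 17 rho was -0.12 and 0.01. Agreement of the lines within 1 Mb windows (Pearson's r) was 0.31 for chromosome 22, against 0.14 for chromosome 21, 0.51 for 19 and 0.57 for 17. Spearman's rho was 0.43, 0.39, 0.49 and 0.57 in the same order, so the low Pearson values of the acrocentric pair were less marked by rank.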

How the data were processed

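Per the labels' protocols, cells of both lines were fixed, their chromatin was sheared, and an antibody to lamin B1 was used for the precipitation. The authors deposited log2 enrichment of ChIP over input per 40 kb bin, with 1 table per line, and a state label per bin. The submitters' processing notes name STAR and hg19, with no version or role. How ChIP and input were scaled to each other is not given in the sources used here.

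Coordinates are hg19, counted from 1. Bins of 40 kb with a value in both lines were kept. Medians, SDs over bins, runs of adjacent bins of 1 state, steps between medians of 8 bins and correlations were computed with Python 3.11.15. The versions of numpy and pandas were 2.4.6 and 2.3.3. The undoing of the average, the finding of runs, the noise and the correlation were tested on simulated data. Noise is the scaled median absolute difference of bins 3 apart, divided by the square root of 2. No test was run, since each group has 1 library. The text names, for each line and for the difference, windows out of the 5 highest and the 5 lowest of 1 Mb with at least 10 bins, runs of at least 5 bins outside the associated state in VCaP, and the largest steps. The chromosome and these rules were chosen with earlier results of these data known. The planned gene list was not used, since the gene table is of GRCh38.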

Additional observations from a re-analysis of the deposited data

Results flagged for a closer look

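The medians of chromosome 22 had opposite signs in the lines, -0.08 in LNCaP and 0.67 in VCaP, with a median bin difference of 0.72. The difference was not tested, as each line has 1 library pair. Of the 8 windows of 5 Mb, 6 had means of opposite sign. This count belongs to the contrast that chose the chromosome, and no share over the windows of other chromosomes is given. The VCaP minus LNCaP differences of these 6 windows, in order from the centromere, were 1.05, 1.02, 0.52, 0.58, 0.76 and 0.74. They were not tested either. The LNCaP means nearest to 0 among them were -0.04, -0.05 and -0.06, so the sign there rests on values near 0.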

How the results depend on the processing

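No paired analysis was possible because no group has more than 1 library. The 13 results were recomputed to give 41 further values. Of these, 27 stayed within the noise of a deposited value, 0.1 for a correlation or 1.5 times for counts and shares. The medians of both lines and of their difference did so under every alternative run, with the difference between 0.58 (quantile normalized) and 0.72. The noise of a deposited value is a wide limit for a median over 875 bins. Within it the VCaP median still went from 0.67 to 0.48 when centred on the line's median. The other 14 moved, each for a cause that was not tested. The 164 bins with VCaP higher by over 1 became 78 with centred lines and 81 with quantile normalization. Without bins near gaps and ends, r was 0.350 across bins and 0.453 within windows. Without LNCaP bins under -1, an alternative chosen after seeing the data, r was 0.354 across bins, 0.249 across windows and 0.452 within windows. A running median of 5 bins over 0 as the state gave LNCaP a share of 37.3% in 19 runs, with 2 LNCaP borders near a VCaP border. Enrichment over the line's median gave LNCaP 30.7% in 35 runs, VCaP 29 runs, and 20 such borders. More runs have more borders, and the number of borders under these settings is not given. The 2 and 20 thus cannot be read as shares beside the 1 of 9 of the deposited states. The number of associated runs and of shared borders thus depends on how the state is set. Depth is unknown, so a deposited value can be read only against the noise from bins 3 apart, which can include real change.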
